A study of Mus musculus with 4 samples.

Results

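The genes described here are 7 non-coding host genes of small nucleolar RNAs (snoRNAs), namely Gas5, Snhg1, Snhg3, Snhg5, Snhg6, Snhg8 and Snhg12. They were chosen by symbol, and all 7 are among the 24411 genes listed for each library. Mouse embryos of the outbred ICR strain were made by in vitro fertilization. Electroporation delivered either a control siRNA (siControl, 2 libraries) or one targeting Pwp1 (siPwp1, 2 libraries) at 3 hours post insemination (hpi), and the embryos were grown in KSOM with bovine serum albumin until 72 hpi, when they were morulae. Each library holds polyadenylated RNA from 10 pooled whole embryos, amplified with a SMART-Seq kit, so fewer cells of a type and less RNA per cell cannot be told apart. The labels do not say whether the 2 libraries of a group came from separate cultures, and a p-value here reflects the spread among these libraries alone, which may be technical.

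SnoRNAs guide the chemical modification and cleavage of ribosomal RNA in the nucleolus. Box C/D snoRNAs direct 2′-O-methylation and box H/ACA snoRNAs direct pseudouridylation, and most mammalian ones are cut out of the introns of a host gene. In the non-coding hosts the introns carry the product, while the spliced exons hold at best short reading frames. Such spliced RNAs reach the cytoplasm, and many are removed there by nonsense-mediated decay (NMD), which acts when a translating ribosome stops well before an exon junction. Host genes often start with a pyrimidine tract like that of ribosomal protein genes, a class known as TOP genes. PWP1 itself belongs to the WD-repeat family and has been linked to transcription of ribosomal DNA.

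The siRNA target was lower in both treated libraries. Pwp1 stood at 215.4 and 364.9 CPM (counts scaled to library size, with the trimmed mean of M values, TMM) in siControl and at 36.9 and 37.2 CPM with siPwp1, or 7.83-fold lower. Library totals ran from 28981358 to 48765229 expected counts, and the 7 host genes took 0.0171% to 0.0346% of them. All 12 embryo markers had counts in each library. The 8 cumulus and granulosa markers summed to 0.03 to 0.15 TPM (transcript abundance scaled by length and library), and 3 of them (Ptx3, Inhba and Cyp19a1) were at 0 throughout. The 5 sperm markers summed to 0 to 3.14 TPM. The 7 blood markers summed to 38.6 and 117 TPM in siControl and 145.5 and 154.2 TPM in siPwp1. Of these, 3 had counts in every library, and Hbb-bs and Hbb-bt were at 0. The part of these markers in the results was not tested.

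The sequences around the annotated start sites are shown because promoter features recur among the hosts, although no feature was found in all of them. RefSeq start sites (GRCm38.p6) were matched for 6 of the 7 genes, all but Snhg6. Each run holds 40 bases before the start and 20 from the start on, 5′ to 3′ on the gene's strand. Capitals mark the letters TATA between 40 and 11 bases before the start, and a C followed by at least 4 further C or T within 10 bases on either side of it.
Gas5, chr1:161035126-161035185, plus strand: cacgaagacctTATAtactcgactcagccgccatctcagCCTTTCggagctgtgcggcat
Snhg1, chr19:8723447-8723506, plus strand: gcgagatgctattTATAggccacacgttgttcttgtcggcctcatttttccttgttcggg
Snhg5, chr9:88522878-88522937, minus strand: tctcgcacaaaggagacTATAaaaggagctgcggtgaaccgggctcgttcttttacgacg
Snhg12, chr4:132308638-132308697, plus strand: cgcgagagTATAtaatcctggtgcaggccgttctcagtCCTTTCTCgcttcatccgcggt
Snhg3, chr4:132353667-132353726, minus strand: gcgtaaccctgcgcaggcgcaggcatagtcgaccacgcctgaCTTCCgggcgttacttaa
Snhg8, chr3:123508317-123508376, minus strand: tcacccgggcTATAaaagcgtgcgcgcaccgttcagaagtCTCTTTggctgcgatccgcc
TATA was present in 5 of the 6 windows, against 6.52% of all 32851 promoters in the same table searched on the gene's strand in the same way. The pyrimidine run was present in 4 of the 6, against 25.5% of all promoters. It lay across the start in Gas5 and Snhg12, began at the start in Snhg8 and lay just after it in Snhg3. For 3 of these genes GENCODE M21 starts the counted transcript at another base than the RefSeq start used here. These were Snhg1 (8723475, not 8723487), Snhg5 (88522890, not 88522897) and Snhg8 (123508330, not 123508336). Matches and positions counted from the GENCODE starts were not examined. A match is a description of these letters only, and so is a missing match.

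The hosts differ in the snoRNAs they carry, by the GENCODE M21 annotation on GRCm38, the assembly that mm10 names. Gas5 (chromosome 1, 161034422 to 161038539, plus strand) holds 9 annotated snoRNA loci, and Snhg1 (chromosome 19, 8723475 to 8726443, plus strand) holds 8. Snhg12 (chromosome 4, 132308623 to 132311024, plus strand) holds 4. Snhg3 (chromosome 4, 132348014 to 132353686, minus strand) holds 2 and Snhg5 (chromosome 9, 88521050 to 88522929, minus strand) holds 2. Snhg6 (chromosome 1, 9941959 to 9944118, minus strand) and Snhg8 (chromosome 3, 123507552 to 123508404, minus strand) hold 1 each. One example of each class follows, from GENCODE's transcript sequences, with the box letters in capitals: TGATGA (C box) and CTGA (D box) in Snord87 from Snhg6, and ACA near the 3′ end in Snora24 from Snhg8.
Snord87: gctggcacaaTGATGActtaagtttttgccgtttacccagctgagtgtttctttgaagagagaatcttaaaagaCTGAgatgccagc
Snora24: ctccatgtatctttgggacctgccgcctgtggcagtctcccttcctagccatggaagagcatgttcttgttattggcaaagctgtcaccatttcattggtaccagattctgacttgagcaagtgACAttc
The snoRNAs themselves were not measurable here. Of the 8 snoRNA genes inside these hosts that the files list (Snord22, Snord47, Snord87, Snord99, Snora16a, Snora24, Snora44 and Snora61), all 8 had a count of 0 in every library. Each is 136 bases or shorter with an effective length of 0, that is, shorter than the fragments counted. Every level below is therefore that of the host gene as counted. For Gas5 and Snhg8 the counted exons include snoRNA sequence.

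Which form of the host RNA was counted also differs among the 7 genes. The files name 1 RefSeq transcript for each. For Snhg1, Snhg3, Snhg5, Snhg6 and Snhg12 it pairs with a spliced transcript of 3 to 10 exons, and 0 of the snoRNAs lie in its exons. For Gas5 the transcript (NR_002840, 2554 bases in the files) pairs with a retained-intron transcript of 4 exons, whose exons cover 6 of the 9 snoRNA loci. GENCODE lists spliced Gas5 forms of up to 12 exons. For Snhg8 the transcript (NR_028574, 785 bases) pairs with an unspliced retained-intron form of 1 exon that covers Snora24. The counted Gas5 model keeps 3 junctions near its 3′ end but not those that the spliced forms have further upstream, and the counted Snhg8 model has none. How many reads of the spliced forms were lost was not tested. The pairing is loose for Snhg1, whose transcript is 476 bases in the files and 605 bases in GENCODE, so its exons and frame here are those of the GENCODE transcript.

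**Figure D1:**
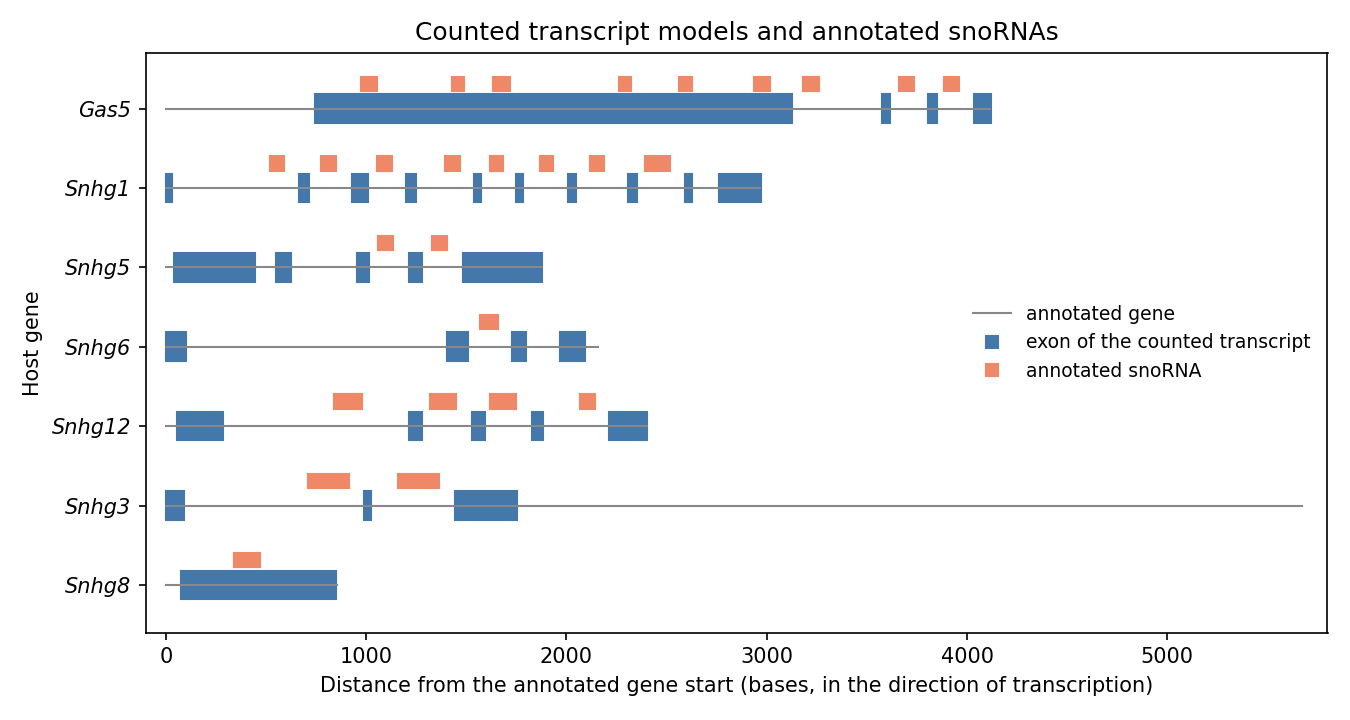
Counted transcript models of the 7 host genes, with distance in bases from the annotated gene start on the horizontal axis and 1 gene per row. Blue boxes are exons of the counted transcript, orange boxes are annotated snoRNAs and grey lines are annotated genes. The blue exons of Gas5 and Snhg8 run across snoRNAs, while those of the other 5 genes leave them in introns.

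The reading frames of the host transcripts are shown because the decay known for such RNAs depends on where translation stops. The frame from the first ATG to its stop is given for 4 hosts, from the GENCODE transcript paired with the counted one except for Gas5, where it is that of a spliced form not counted here, with the ATG and the stop in capitals.
Snhg5: ATGaccaagTGA
Gas5 (spliced form of 12 exons): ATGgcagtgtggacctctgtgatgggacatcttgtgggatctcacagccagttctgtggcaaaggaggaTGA
Snhg1: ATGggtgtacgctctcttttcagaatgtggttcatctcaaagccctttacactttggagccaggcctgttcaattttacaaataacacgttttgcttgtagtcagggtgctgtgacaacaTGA
Snhg3: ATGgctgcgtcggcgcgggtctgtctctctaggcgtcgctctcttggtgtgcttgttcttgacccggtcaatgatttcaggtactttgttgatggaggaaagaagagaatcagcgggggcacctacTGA
The frames hold 3 codons before the stop in Snhg5, 23 in spliced Gas5, 40 in Snhg1, 42 in Snhg3, 53 in Snhg6 and 54 in Snhg12. In both Snhg8 forms examined the first ATG is followed at once by a stop. Exon junctions at least 50 bases after that stop number 7 of 11 in spliced Gas5, 5 of 9 in Snhg1, 4 of 4 in Snhg5, 3 of 4 in Snhg12, 1 of 3 in Snhg6 and 2 of 2 in spliced Snhg8. The counted Gas5 model has a frame of 14 codons with 3 of 3 junctions after it, and the counted Snhg8 model has 0 junctions. In Snhg3 the stop ends past the last junction, so 0 of its 2 junctions follow it. Whether these frames are translated was not measured.

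Compared per length, in deposited TPM, the hosts ranged over more than 1 order of magnitude in siControl. Snhg1 stood highest, at 148 and 140.3 TPM, followed by Snhg5 at 115.2 and 91.5 TPM and Snhg3 at 107.3 and 81.4 TPM. Gas5 followed at 56.3 and 26.5 TPM, Snhg6 at 45.9 and 31.98 TPM, Snhg12 at 22.95 and 17.95 TPM and Snhg8 at 10.6 and 1.2 TPM. Snhg5 and Snhg3 overlapped each other, as did Gas5 and Snhg6. The other neighbours in this order were apart in both libraries. In siPwp1 Snhg3 (157.7 and 169 TPM) lay above Snhg5 (143.4 and 117.3 TPM) in both libraries, whereas in siControl it lay below Snhg5 in both. TPM rests on the effective length, which for the shorter hosts is far below the full length: 149 to 157 bases for Snhg6 and 176 to 184.7 bases for Snhg3. For Gas5 it was 2284 to 2295 bases, from the counted retained-intron model, whereas the spliced form of 12 exons has 502 bases. The place of Gas5 in this order therefore depends on the counted model, and its place with a spliced model was not tested.

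The comparison of siPwp1 with siControl asks whether host RNAs differ between control and Pwp1-targeted morulae. None of the 7 passed the test, and their differences were modest. Snhg1, Snhg3 and Snhg12 were higher in both siPwp1 libraries than in either siControl library, by 1.35-fold to 1.65-fold. Snhg5 was higher by group mean with overlapping libraries, and Gas5, Snhg6 and Snhg8 showed no separation of the groups. Over all 13585 genes tested, edgeR's quasi-likelihood test with Benjamini-Hochberg adjustment called 0% higher and 0% lower. Pwp1, the siRNA target, was not called either, at an edgeR adjusted p = 0.22 beside a DESeq2 adjusted p = 1.47e-12. A host without an edgeR call is therefore not shown to be unchanged. Of the 7 hosts, edgeR called 0 and DESeq2 called 0, where DESeq2 called 0.309% of all genes higher and 0.0147% lower. At unadjusted p under 0.05, 0 of the 7 passed with edgeR on group alone, where 1.84% of all genes were higher and 0.824% lower. The 3 hosts with separated groups compare with 14.7% of all genes separated in that direction, and 0 hosts were separated the other way, against 14.1%.

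**Figure D2:**
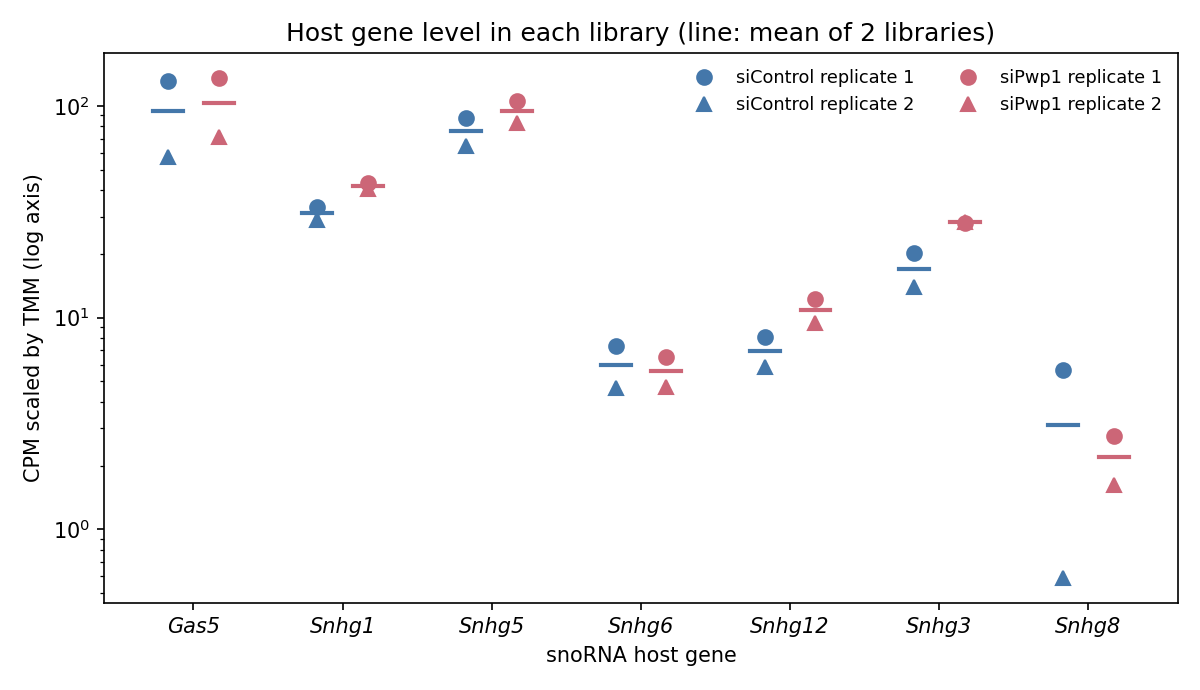
Level of each host gene in each library, as CPM scaled by TMM on a log axis; circles are replicate 1, triangles replicate 2, blue siControl and red siPwp1, and lines are means of 2 libraries. Both red points lie above both blue points for Snhg1, Snhg12 and Snhg3, and replicate 1 lies above replicate 2 in both groups for 6 of the 7 genes, all but Snhg3.

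Among the hosts of box C/D snoRNAs, Snhg1, which carries Snord22 and 7 further loci, had the smallest difference between siControl replicates of the 7 on the log2 scale (-0.21, replicate 2 minus replicate 1). It stood at 33.3 and 28.8 CPM with siControl and 43.4 and 40.7 CPM with siPwp1, or 31.1 ± 3.18 and 42 ± 1.95 CPM (SD, n = 2). The groups did not overlap. The log2 fold change of Snhg1 reached 0.44 (SE 0.28, edgeR unadjusted p = 0.169), and all 7 hosts had an edgeR adjusted p = 0.9998. With 1 library left out it ran from 0.33 to 0.54.

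Snhg5, the host of Snord50a and Snord50b, stood at 87.9 and 64.4 CPM with siControl and 105.6 and 82.8 CPM with siPwp1. The lower siPwp1 library lay below the higher siControl library on this scale. In TPM both siPwp1 libraries (143.4 and 117.3 TPM) lay above both siControl libraries (115.2 and 91.5 TPM). The log2 fold change from counts was 0.31 (SE 0.29, edgeR unadjusted p = 0.322). It shrank to 0.10 when siControl replicate 2 was left out and to 0.12 when siPwp1 replicate 1 was, and reached 0.55 when siControl replicate 1 was.

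Gas5, named for its rise in growth-arrested cells, had the highest CPM of the 7 in replicate 1 of each group and large differences within groups; in replicate 2 of each group Snhg5 was higher. It stood at 131.1 and 57.2 CPM with siControl and 135.3 and 70.9 CPM with siPwp1. Replicate 1 of each group was high and replicate 2 low, so the groups overlapped almost fully. The log2 fold change of 0.13 (SE 0.47, edgeR unadjusted p = 0.787) turned to -0.35 when siControl replicate 2 was left out and to -0.41 when siPwp1 replicate 1 was. Leaving out siControl replicate 1 gave 0.85, and leaving out siPwp1 replicate 2 gave 0.53.

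Snhg6, the host of Snord87, stood at 7.32 and 4.64 CPM with siControl and 6.51 and 4.68 CPM with siPwp1. Both siPwp1 libraries lay between the siControl libraries. The log2 fold change was -0.09 (SE 0.47, edgeR unadjusted p = 0.85), and it turned to 0.27 when siControl replicate 1 was left out and to 0.13 when siPwp1 replicate 2 was. Leaving out siControl replicate 2 gave -0.39 and leaving out siPwp1 replicate 1 gave -0.35.

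Snhg12 carries snoRNAs of both classes, the H/ACA RNAs Snora16a, Snora44 and Snora61 and the C/D RNA Snord99. It stood at 8.12 and 5.82 CPM with siControl and 12.2 and 9.47 CPM with siPwp1, or 6.97 ± 1.62 and 10.8 ± 1.94 CPM (SD, n = 2). The groups did not overlap, although the spread within each group was large beside the gap between 8.12 and 9.47 CPM. For Snhg12 the log2 fold change was 0.64 (SE 0.41), with an edgeR unadjusted p = 0.169. With 1 library left out it ran from 0.42 (siControl replicate 2 left out) to 0.90 (siControl replicate 1 left out).

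Snhg3 is the host of Snora73a and Snora73b, the copies of the U17 RNA, an H/ACA RNA known for a part in early cleavage of the ribosomal RNA precursor. It had the largest log2 fold change of the 7. It stood at 20.1 and 13.9 CPM with siControl and 27.9 and 28.4 CPM with siPwp1, or 17 ± 4.39 and 28.2 ± 0.293 CPM (SD, n = 2). The siPwp1 libraries were nearly equal and both above siControl. For Snhg3 the log2 fold change was 0.73 (SE 0.34), 1.65-fold, with an edgeR unadjusted p = 0.0715 and a DESeq2 unadjusted p = 0.0524. Leaving out siControl replicate 2 gave 0.48 and leaving out siControl replicate 1 gave 1.02. The Snhg3 gene overlaps Rcc1, the gene of a chromatin-bound exchange factor for Ran, over 5592 bases on the same strand, and their starts are 81 bases apart. Rcc1 stood at 44.7 and 47.7 CPM with siControl and 39.4 and 45.2 CPM with siPwp1, a log2 fold change of -0.13 (SE 0.27). The expected counts of both genes were whole numbers, to within 0.005, in all 4 libraries.

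Snhg8, the host of Snora24, was the lowest of the 7 genes and the most variable in siControl. In siPwp1 its log2 difference, replicate 2 minus replicate 1, was -0.77, beside -0.93 for Gas5. Its counts were 163 and 26 in siControl and 140 and 49 in siPwp1, or 5.66 and 0.592 CPM against 2.77 and 1.63 CPM. Both siPwp1 libraries lay between the siControl libraries, which differed by 3.26 on the log2 scale. The log2 fold change of -0.49 (SE 0.9996, edgeR unadjusted p = 0.636) turned to 1.89 when siControl replicate 1 was left out, and stayed between -1.36 and -0.16 when any of the others was. On the log2(TPM + 1) scale, with limma, it was 0.056.

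**Figure D3:**
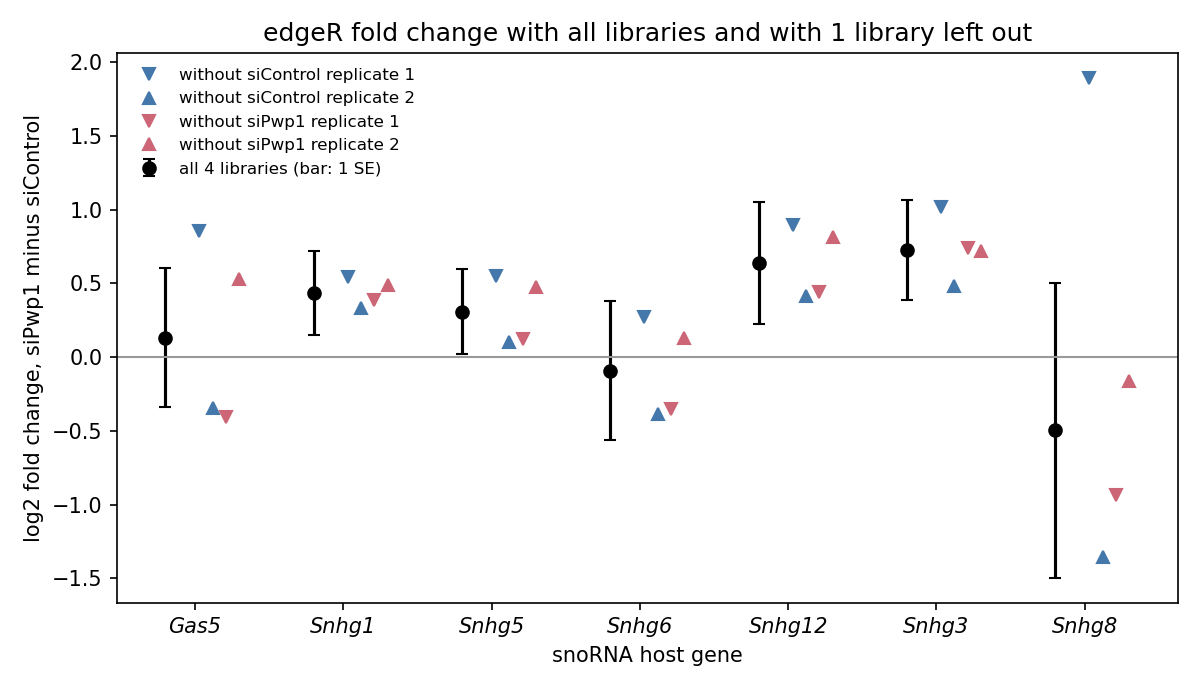
Log2 fold change of each host gene from edgeR, siPwp1 minus siControl, with all 4 libraries (black, bar of 1 SE) and with each library left out (coloured triangles). Snhg1, Snhg5, Snhg12 and Snhg3 stay above 0 in each of these fits, while Gas5, Snhg6 and Snhg8 fall on both sides of 0.

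As a group, the 7 hosts had a median log2 fold change of 0.31, with 5 above 0 and 2 below, beside a median of -0.0010 over all genes tested. Leaving out siControl replicate 2 gave a median of 0.10 and leaving out siPwp1 replicate 1 one of 0.12. Leaving out siControl replicate 1 gave 0.85. Their summed level was 293.5 and 175.4 CPM with siControl and 333.8 and 238.5 CPM with siPwp1, and the groups overlapped. The summed log2 ratio, taken from the group means, was 0.29. A two-sided exact permutation test of the difference in mean log2 sums gave p = 0.667, where 2 against 2 cannot go below 0.333. The ratio moved to -0.037 with siControl replicate 2 left out, to 0.024 with siPwp1 replicate 1 left out, to 0.51 with siPwp1 replicate 2 left out and to 0.71 with siControl replicate 1 left out. Gas5 supplied 29.7% to 44.7% of the summed CPM. In TPM, where Gas5 supplied 5.56% to 11.1%, the sums were 506.3 and 390.8 in siControl and 649.1 and 585.6 in siPwp1. The log2 ratio of the group means was 0.46, and the groups did not overlap. The same exact permutation test, on mean log2 sums, gave p = 0.333, the smallest possible.

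The libraries also differed by replicate number. Replicate 2 lay below replicate 1 in both groups for 6 of the 7 hosts, where 33.9% of all genes did so. The median difference, replicate 2 minus replicate 1, was -0.53 in siControl and -0.37 in siPwp1 on the log2 scale, against -0.02 and 0 over all genes tested. For Gas5 it was -1.20 and -0.93, larger than its difference between the groups. For Snhg1 it was -0.21 and -0.09, smaller than its difference between the groups.

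Other non-coding snoRNA hosts had positive medians too, with members on both sides of 0. A list of 14 further non-coding hosts had 13 members tested, with a median log2 fold change of 0.28, 9 above 0 and 4 below. The 4 below were Snhg11 (-0.67), Snhg14 (-0.49), Snhg18 (-0.36) and Snhg16, listed as 1810032O08Rik (-0.21). Of these, 0 were called by edgeR, 5 were separated and higher and 1 was separated and lower, beside the 14.7% and 14.1% of all genes. Snhg15, listed as Gm11974, stood at 53.5 and 48.3 CPM with siControl and 77.5 and 79.5 CPM with siPwp1, a log2 fold change of 0.63 (SE 0.26, edgeR unadjusted p = 0.045). Dancr, also known as Snhg13, stood at 6.66 and 8.58 CPM with siControl and 10.5 and 18.4 CPM with siPwp1. Snhg14, the imprinted host of the Snord115 and Snord116 clusters, was the separated gene on the lower side, at 49.1 and 37.4 against 27.7 and 33.8 CPM. The others separated and higher were Zfas1 (listed as 1500012F01Rik), Snhg7 and Snhg17, named after their values were seen. A second list, of 26 non-coding genes outside the 7 that hold an annotated snoRNA on their strand, shared 7 tested genes with the first. It had 17 members tested, a median of 0.28, 13 above 0 and 4 below, and 5 separated higher and 1 lower. Besides Dancr, its smallest edgeR unadjusted p-values were those of 9430037G07Rik, at 1.49 and 0.91 against 4.95 and 1.93 CPM, and AI506816, at 14.6 and 7.71 against 18.9 and 21.8 CPM. With 1 library left out, the medians of the lists ran from 0.21 to 0.47 and from 0.20 to 0.51.

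Protein-coding snoRNA hosts did not share this median. The 217 tested coding genes with an annotated snoRNA inside had a median log2 fold change of -0.04, with 97 above 0 and 120 below. Snhg11 is among them, which GENCODE M21 types as protein-coding and which is also in the first non-coding list. Rcc1 is among them too, as its overlap with Snhg3 takes in Snora73a and Snora73b. Of the 217, 22 were separated higher and 35 lower, beside 14.7% and 14.1% of all genes, and edgeR called 0. Lpp was the only one of the 217 at unadjusted p under 0.05, at 48.4 and 30.1 against 20.2 and 16.2 CPM. Next came Alkbh8, at 9.09 and 10.3 against 18.3 and 16.4 CPM, and Rc3h2, at 59.3 and 58.1 against 43.1 and 22.7 CPM. The list of 28 coding hosts outside the ribosome had a median of -0.09, with 2 separated higher and 6 lower. Among them Taf1d, a subunit gene of the RNA polymerase I initiation factor, was higher at 230.9 and 190.8 against 288.2 and 273.7 CPM (edgeR unadjusted p = 0.128). The mitochondrial chaperone gene Hspa9, at 432.2 and 353.6 against 332.8 and 301.7 CPM, and the chaperonin subunit gene Cct6a, at 516.1 and 487.9 against 421.1 and 406.6 CPM, were separated on the lower side. The 24 ribosomal protein genes that host snoRNAs, which are TOP genes too, had a median of -0.03, with 2 separated higher and 1 lower. Among them Rpl23 had a log2 fold change of -0.22 and Rplp2 one of 0.17. The difference between coding and non-coding hosts was not tested.

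The enzymes and factors of the decay pathway showed no edgeR call, where edgeR called 0% of all genes in either direction. Separated genes in the lists here compare with 14.7% of all genes higher and 14.1% lower. Of 15 NMD factors, including Upf1, the helicase at its centre, edgeR called 0, 1 was separated higher and 2 lower, with a median log2 fold change of 0.07. Upf1 stood at 12.7 and 16.7 CPM with siControl and 15.7 and 19 CPM with siPwp1. The release factor genes Gspt1 and Etf1 had log2 fold changes of -0.40 (SE 0.34) and -0.24 (SE 0.23), and the endonuclease gene Smg6 had 0.40 (SE 0.41). Of 9 genes of the exon junction complex and cap binding, edgeR called 0, and the median was -0.02. Ncbp2, a cap-binding subunit gene, stood at 169.6 and 219.9 against 307.4 and 318.4 CPM, a log2 fold change of 0.68 (SE 0.25, edgeR unadjusted p = 0.0294). Eif4a3 followed at 0.45 (SE 0.28) and Rbm8a at -0.12 (SE 0.21). The 9 listed enzymes of decapping and 5′ to 3′ decay had a median of 0.0062, with 0 called and 0 separated. Ddx6 had a log2 fold change of 0.37 (SE 0.43), Dcp1a -0.35 (SE 0.43) and Dcp2 -0.20 (SE 0.36).

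Among 10 tested protein-coding transcripts known as NMD targets the median log2 fold change was 0.08, with 0 called by edgeR. Of the 10, 2 were separated higher and 0 lower, beside 14.7% and 14.1% of all genes. The stress gene Gadd45b stood at 9.3 and 7.28 CPM with siControl and 30.1 and 12.5 CPM with siPwp1, a log2 fold change of 1.36 (SE 0.50, edgeR unadjusted p = 0.0297). Ddit3, a transcription factor gene of the stress response, stood at 6.42 and 2.89 against 11.9 and 10.5 CPM, a log2 fold change of 1.27 (SE 0.51, edgeR unadjusted p = 0.0412). Gadd45a was not separated, at 2.12 and 0.819 against 1.7 and 4.98 CPM. These genes respond to stress signals as well as to decay, and gene totals do not show which isoform was present.

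Across 19 genes of proteins that bind and assemble snoRNAs the median log2 fold change was 0.11, with 3 separated higher, 1 lower and 0 called by edgeR. In this list and the next, separated genes compare with 14.7% of all genes higher and 14.1% lower. Snu13, listed as Nhp2l1, encodes a core protein of box C/D particles and stood at 1177 and 1212 CPM with siControl and 1391 and 1721 CPM with siPwp1. The assembly factor gene Znhit3 had a log2 fold change of 0.48 (SE 0.28) and the helicase gene Ruvbl1 one of 0.34 (SE 0.27). The 15 genes of TOP mRNA translation control had a median of -0.18, with 4 above 0 and 11 below, 2 separated higher, 3 lower and 0 called. Among these Eif4g1, a scaffold gene of translation initiation, stood at 103 and 88.8 against 71 and 65.5 CPM (edgeR unadjusted p = 0.0951). Cnbp had -0.27 (SE 0.21) and Rps6kb2 had 0.46 (SE 0.38).

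**Figure D4:**
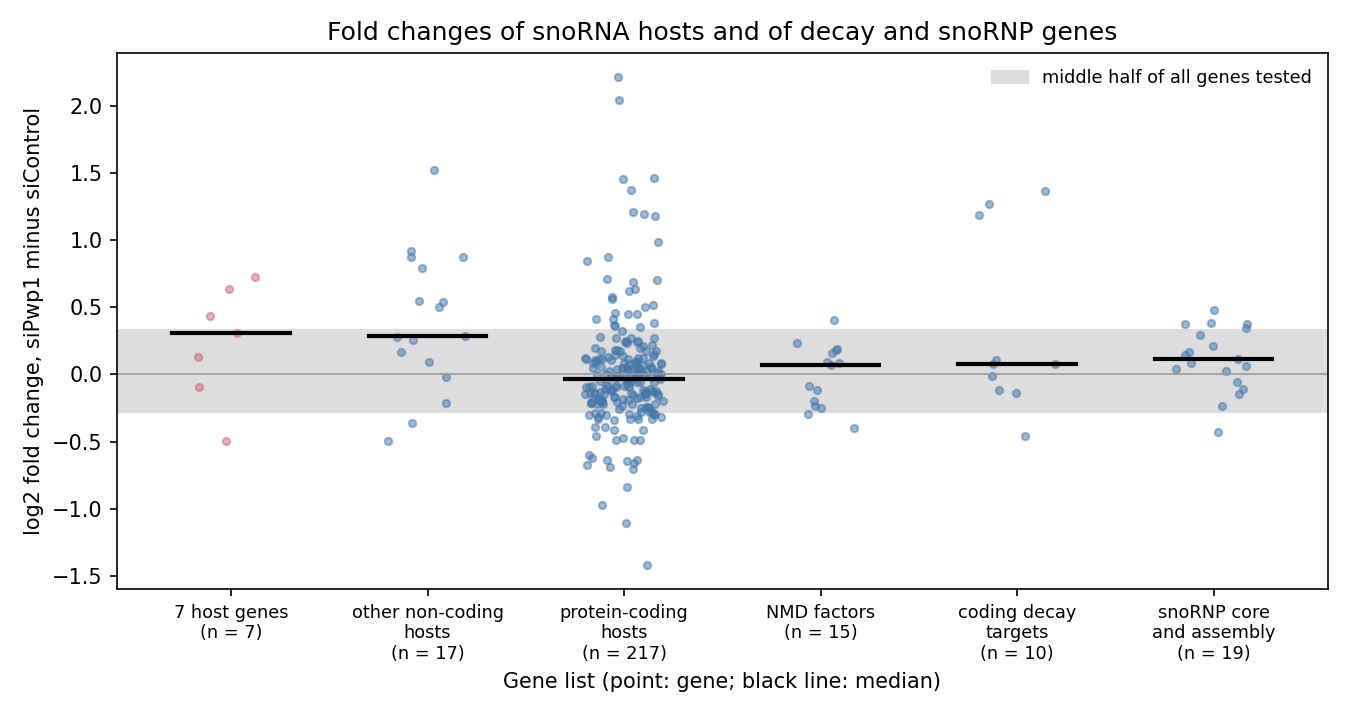
Log2 fold change, siPwp1 minus siControl, of each tested gene (points) in 6 lists, with the list median as a black line and the interquartile range of all genes tested in grey. The medians of the 7 host genes (0.31) and of the 17 other annotated non-coding hosts (0.28) lie near the top of the grey band, and that of the protein-coding hosts (-0.04) lies near 0.

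Besides Snhg3, 3 hosts have a neighbour that overlaps them or starts close by, on the opposite strand. Snhg3 itself also has one, the long non-coding RNA gene Gm17300, which overlaps it by 1611 bases. That overlap takes in counted Snhg3 exons. Gm17300 is not among the genes listed for each library, so its level is not known here. Whether its reads entered the Snhg3 count was not tested. Slc3a2, an amino acid transporter subunit gene on the opposite strand, starts 106 bases from Snhg1 and stood at 97.4 and 236.5 CPM with siControl and 201.5 and 211.2 CPM with siPwp1. Zbtb37 overlaps the annotated Gas5 gene by 428 bases on the opposite strand and stood at 4.23 and 12.3 against 7.78 and 13.8 CPM. Mcmdc2 overlaps Snhg6 by 127 bases on the opposite strand and stood at 1.18 and 1.71 against 1.05 and 0.731 CPM. The strand setting is not given in the sources used here, so reads in these overlaps cannot be assigned to a strand. The Zbtb37 overlap lies at the start of the annotated Gas5 gene, before the counted Gas5 exons, which begin 744 bases in.

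The genes whose centred log2 CPM over the 4 libraries lay closest to the median profile of the 7 hosts were Scml4, Ubxn2b and P3h3, at root mean square distances of 0.038, 0.041 and 0.049. With 4 libraries such likeness is common: 394 of the other 13578 genes lay within 0.2.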

How the data were processed

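The authors deposited, per the file headers, RSEM expected counts per gene for each of 4 libraries, not normalized. The deposited TPM, per the file headers, were scaled by the authors within each library using effective length. The FPKM that the authors deposited were not used. The submitters' processing notes name STAR 2.7.10, RSEM 1.3.3 and mm10, with the annotation release and strandedness not given in the sources used here. Groups were taken from sample titles. Expected counts were rounded, filtered with filterByExpr (minimum count 10), scaled by TMM and tested with edgeR 4.0.16 (R 4.3.3) on group alone, leaving 13585 genes. P-values are two-sided, Benjamini-Hochberg adjusted over these genes, at a threshold of 0.05. A log2 fold change is siPwp1 minus siControl, and its SE was derived from it and the F statistic (absolute value divided by root F). "Separated" means that the ranges of the groups did not overlap. A count of 3 corresponds to 0.0594 to 0.104 CPM, for counting error only. DESeq2 1.42.0 and limma 3.58.1 (log2(TPM + 1), mean of at least 1 TPM) were alternatives, beside other filters, scaling, the replicate block and leaving out each library. A group left with a single library takes its spread from the other group. The fit was checked on simulated data. The 7 genes and all lists were chosen with earlier results of these data known. Genes named from a list are up to 3 with its smallest unadjusted p (1 such gene is not reported here) and genes chosen after their values were seen: Zfas1, Snhg7, Snhg11, Snhg16, Snhg17, Snhg18 and Upf1. In 7 cases an older symbol was matched through RefSeq synonyms.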

Additional observations from a re-analysis of the deposited data

How the results depend on the processing

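With 2 libraries per group, none of the 7 hosts was called under any alternative run, including DESeq2 and a threshold of 0.1 on the edgeR adjusted p. Snhg1, Snhg3, Snhg5 and Snhg12 kept a positive log2 fold change under all of them. Snhg8 turned to 0.15 with the replicate block and to 0.056 with limma on log2(TPM + 1), and could not be fitted under the stricter filter (5 CPM, 2 or more libraries). With 1 library left out, the log2 fold change ran from -0.41 to 0.85 for Gas5, from -0.39 to 0.27 for Snhg6 and from -1.36 to 1.89 for Snhg8. The median of the 7 then ran from 0.10 to 0.85, that of the decapping and decay enzymes from -0.041 to 0.26 and that of TOP translation control from -0.27 to -0.034. The medians of NMD factors, exon junction complex, protein-coding decay targets, ribosomal protein hosts, other coding hosts and snoRNP assembly also fell on both sides of 0. Over all genes, edgeR called 0 higher and 0 lower. It called 99 higher and 7 lower with no filter on low counts, 71 and 9 with the replicate block, 5 to 130 higher and 1 to 18 lower with 1 library left out, and DESeq2 called 42 and 2. The cause was not tested. Same-numbered libraries deviated together across genes (r = 0.317, across 13585 genes that are not independent replicates), but the labels do not say that a number marks a shared batch. The block called 0 of the 7 hosts. In it Snhg3 had an edgeR unadjusted p = 0.0194 and adjusted p = 0.416. With limma on log2(TPM + 1) Snhg3 had an unadjusted p = 0.0314 and adjusted p = 0.9999. With other filters or scaling its edgeR unadjusted p ran from 0.0601 to 0.0843.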
